A study of Mus musculus with 14 samples.

Results

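Gene expression of liver sinusoidal endothelial cells (LSECs) from mice 7 days after a single injection of carbon tetrachloride (CCl4) was compared, across all genes, with that of LSECs from mice 3 days after the injection. The comparison holds 8 of the 14 samples, 4 libraries labelled day 7 and 4 labelled day 3, and these were chosen by their labels alone. Another 4 libraries from healthy mice and 2 from day 1 are given only beside these as levels. All mice were male Balb/c aged 10 to 12 weeks by the labels, the injected mice received CCl4 in mineral oil intraperitoneally at 0.5 µl per g of body weight, and the healthy mice were untreated, so that no group received the oil alone. Livers were perfused and cells were sorted as CD32+, F4/80-, UV- and propidium iodide-, to which the study's methods add CD45-, and RNA was taken without culture. Each library is a different mouse. CD32 antibodies also bind Fc receptors of B cells and myeloid cells, which limits the gate, and each library is a bulk sample, so that fewer cells of a type and less RNA per cell cannot be told apart.

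LSECs line the liver sinusoids as a fenestrated endothelium that takes up waste from the blood through scavenger and lectin receptors. CCl4 is converted to a radical in pericentral hepatocytes and kills them, after which hepatocytes and then endothelial cells divide to refill the lobule while debris is cleared. A dividing cell copies its DNA with the licensing helicase and the fork machinery, then separates its chromosomes with the mitotic kinases and kinetochores, and it enlarges its nucleoli to make the ribosomes that growth requires. Many replication genes carry binding motifs of E2F factors in their promoters, and many mitotic genes carry the CHR element together with CCAAT boxes.

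The 8 libraries held 62635645 to 93345913 counts on genes at day 3 and 46401496 to 86318681 at day 7, which did not differ beyond their spread (exact permutation test, two-sided, p = 0.486, smallest possible 0.0286). A gene under 3 counts in a library was taken as not detected, a floor that covers counting error only. The day 3 libraries fell into unlike pairs. Replicates 1 and 2 held 34678 and 34768 genes with a count, whereas replicates 3 and 4 held 28203 and 22986, against 27283 to 28476 at day 7. Correlation of log2 CPM between mice was 0.875 to 0.963 within day 3 and 0.951 to 0.964 within day 7. The summed level of 14 neutrophil and monocyte marker genes was 13587 and 8373 CPM in day 3 replicates 1 and 2, 1504 and 1371 CPM in replicates 3 and 4, and 4195 to 9659 CPM at day 7. Most of the sum in each of the 8 libraries was 1 gene, Lyz2 (3919 to 9304 CPM at day 7). The mean log2 CPM of the 14 genes was 6.57, 6.08, 2.41 and 0.79 at day 3 and 3.17 to 4.06 at day 7. All 14 LSEC marker genes were detected in each of the 8 libraries and none was called changed in edgeR's test, with a summed level of 11817 to 17097 CPM at day 3 and 11720 to 16444 CPM at day 7. DESeq2 called 2 of them higher beside 2.63% of all tested genes. Limma-voom with sample weights called 4 higher and 1 lower, beside 8.02% and 14.5%. Their median log2 fold change was -0.02, and 0.02 with RLE size factors. Of the LSEC markers, Stab2, a scavenger receptor for hyaluronan, stood at 947, 1168, 1701 and 2363 CPM at day 3 and 1308, 1266, 1785 and 1716 CPM at day 7.

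Of 26626 genes tested, 472 (1.77%) were called changed at an adjusted p under 0.05 in edgeR's quasi-likelihood test, and falls outnumbered rises. LSECs at day 7 had 110 genes higher (0.413%) and 362 lower (1.36%), with a median log2 fold change of 1.36 among the former and -1.15 among the latter. Over all tested genes the median was -0.10, and 5017 genes had an unadjusted p under 0.05. Day 7 and day 3 values did not overlap for all 110 genes called higher and for 351 of the 362 called lower, where 3.76% of all tested genes lay entirely above at day 7 and 4.15% entirely below. A call selects for such separation, so that here and for single genes below it describes the values and adds no support. Of the genes called lower, 321 were protein-coding and 33 were processed pseudogenes, copies whose reads may come from their parent genes. Of those called higher, 63 were protein-coding. Another annotated gene overlapped 246 of the 472, and since the use of strand in counting is not stated, their counts are uncertain. Among the genes named below these include Gas6, Cdkn1c, Gpr155, Sned1, Mxd4, Txnip, F8, Odc1 and Ccl2.

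The number of calls depended on single libraries. It was 104, 289, 190 and 1652 without day 3 replicates 1, 2, 3 and 4 in turn, and 127, 143, 26 and 44 without day 7 replicates 1 to 4. The share of all tested genes called lower was then 0.281%, 0.906%, 0.287% and 4.56% without each day 3 library in turn and 0.28%, 0.409%, 0.0417% and 0.0756% without each day 7 library, and the share called higher was 0.125%, 0.223%, 0.431% and 1.69%, and 0.2%, 0.132%, 0.0568% and 0.0907%. Of 82 called genes given with values below, 29, 45, 36 and 77 remained called without each day 3 library in turn, and 28, 30, 13 and 21 without each day 7 library. The 13 that remained called without any 1 library were Gas6, Cdkn1c, Trp53inp1, Gpr155, Hey1, Mxd4, Ahnak2, Sned1, Prim1, Tyms, Rfc4, Nop56 and Apln. A model of the 8 samples alone, without the healthy and day 1 libraries that share its estimate of the spread, called 1 gene (Gm44503, which overlaps 7 other genes), with 2902 at an unadjusted p under 0.05.

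**Figure D1:**
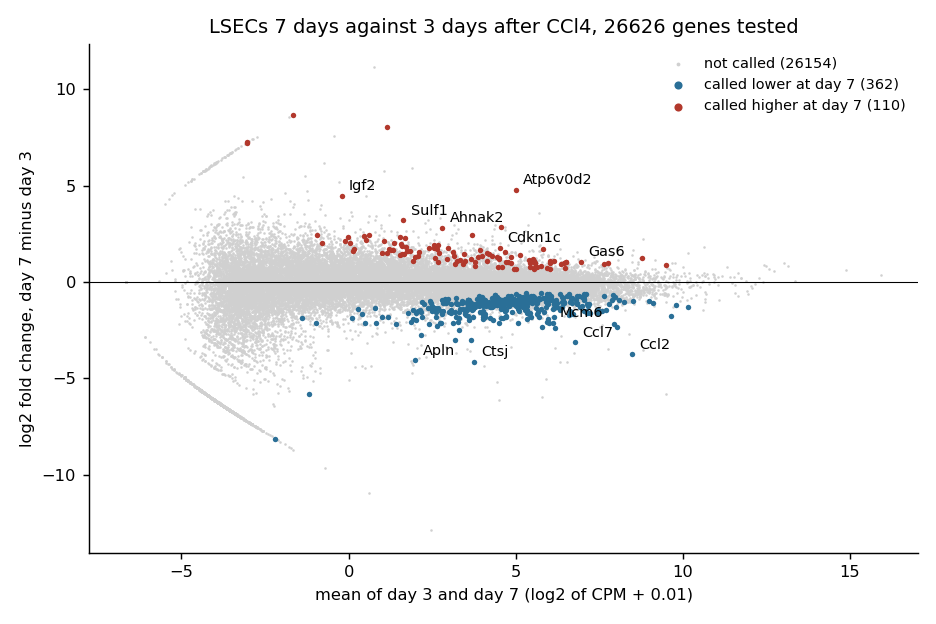
Each point is 1 of 26626 tested genes, with its mean level over both days on the horizontal axis (log2 of CPM + 0.01) and its log2 fold change, day 7 against day 3, on the vertical axis. Coloured points are the 110 genes called higher and the 362 called lower, and the labelled genes are among those described in the text.

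Genes that copy DNA fell broadly. Their list, like the other lists used here, was chosen with earlier results of these data known. Its counts therefore describe the genes and do not test them. Of 50 tested DNA replication genes, 26 (52.0%) were called lower at day 7 and 0 higher, against 1.36% and 0.413% of all tested genes, and their median log2 fold change was -1.37. Their mean log2 CPM was 4.85, 4.36, 5.46 and 5.41 in the 4 day 3 mice and 3.85, 3.92, 3.82 and 3.70 in the 4 day 7 mice, so that the groups did not overlap. Healthy LSECs lay between 3.65 and 4.08 and day 1 LSECs at 3.56 and 3.52. Among the parts of the list, 7 of 18 licensing and origin genes, 16 of 26 fork genes and 3 of 6 genes of nucleotide supply were called lower. Without each day 3 mouse in turn the count of 26 became 8, 32, 5 and 28, and without each day 7 mouse 6, 9, 3 and 3. The 1 member with a positive value was Fen1, a flap endonuclease (log2 fold change 3.34, adjusted p = 0.203 in edgeR's test), whose counts are uncertain because the gene overlaps Gm10143 and Tmem258.

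To show the promoters behind the cell cycle genes, the 150 bases before the RefSeq transcription start (GRCm38.p6, gene strand, 5′ to 3′) are given for a licensing gene, for a mitotic kinase, for a proliferation marker and for the kinetochore gene that moved the other way. Capitals mark E2F motifs (TTTGGCGC, TTTCGCGC or TTTCCCGC), CCAAT boxes (CCAAT, or ATTGG where it lies on the other strand) and CHR elements (TTTGAA or TTCGAA), searched on both strands.
Mcm6, chr1:128359706-128359855, minus strand: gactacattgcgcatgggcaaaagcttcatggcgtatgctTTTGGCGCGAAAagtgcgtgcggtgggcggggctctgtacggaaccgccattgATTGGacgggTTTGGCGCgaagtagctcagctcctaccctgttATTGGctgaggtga
Cdk1, chr10:69352913-69353062, minus strand: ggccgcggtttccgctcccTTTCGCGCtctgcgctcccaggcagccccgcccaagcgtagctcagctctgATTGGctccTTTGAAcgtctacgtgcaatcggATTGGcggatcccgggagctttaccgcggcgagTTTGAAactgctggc
Mki67, chr7:135716380-135716529, minus strand: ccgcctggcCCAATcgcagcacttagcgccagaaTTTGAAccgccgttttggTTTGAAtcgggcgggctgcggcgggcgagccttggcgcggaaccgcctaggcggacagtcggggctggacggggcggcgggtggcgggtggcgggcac
Cenpa, chr5:30666736-30666885, plus strand: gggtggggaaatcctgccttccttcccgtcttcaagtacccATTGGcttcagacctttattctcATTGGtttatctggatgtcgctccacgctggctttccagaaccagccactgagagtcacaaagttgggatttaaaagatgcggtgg

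In the Mcm6 window, TTTGGCGC began 110 and 47 bases before the start, and TTTCGCGC lay on the other strand where it overlaps the first of these, with CCAAT boxes 57 and 14 bases before the start. Cdk1 had TTTCGCGC 131 bases before the start, CCAAT boxes at 80 and 48 and CHR elements at 71 and 15. Mki67 had a CCAAT box at 141 and CHR elements at 116 and 98, and Cenpa had CCAAT boxes at 109 and 86 and neither of the other motifs. The GENCODE 5′ end of Cenpa lies 109 bases before its RefSeq start, so that most of the window shown for it is within the GENCODE transcript. Over the full promoter windows of 250 bases before to 50 after the start, matched for 14650 of the 26626 tested genes, an E2F motif was found in 2.95% of all promoters and a CHR element in 15.5%. Of the 42 matched replication promoters, 31.0% held an E2F motif and 21.4% a CHR element, whereas of the 52 matched mitotic promoters 9.62% held an E2F motif and 76.9% a CHR element. CCAAT stood in 38.0% of all promoters, 64.3% of the replication promoters and 73.1% of the mitotic promoters. The 266 matched promoters of genes called lower held an E2F motif in 10.2%, and the 47 matched promoters of genes called higher in 0.00%. A set of 47 is small beside a share of 2.95% in all promoters. For genes called lower and higher, CHR elements stood in 16.9% and 19.1% and CCAAT in 41.4% and 40.4%, near the shares of all promoters. A match describes the letters in the window and not binding by a factor.

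Prim1 (chromosome 10, 128015168 to 128030037) encodes the primase that starts each new strand. It stood at 37.6, 27.9, 47.3 and 42.6 CPM at day 3 and at 9.63, 11.9, 10.8 and 10.1 CPM at day 7. The log2 fold change was -1.87 (SE 0.22, adjusted p = 0.00712), and the day 7 values lay near those of healthy LSECs (10.5 to 20.5 CPM). Rfc4, a subunit of the clamp loader, was at 27.3, 21.5, 30.3 and 24.7 CPM at day 3 and at 9.06, 8.59, 8.27 and 6.71 CPM at day 7 (log2 fold change -1.67, SE 0.20, adjusted p = 0.00712), although it overlaps Eif4a2. Tyms, thymidylate synthase, was at 47.4, 23.7, 39.1 and 38.9 CPM at day 3 and fell to 9.99, 12.9, 8.49 and 9.49 CPM (log2 fold change -1.87, SE 0.23, adjusted p = 0.00712). Gins1, a subunit of the complex that joins the helicase at the fork, stood at 19.7, 13.5, 19.2 and 9.71 CPM at day 3 and at 3.19, 5.23, 3.51 and 2.77 CPM at day 7 (log2 fold change -2.08, SE 0.31, adjusted p = 0.00782). For each of the 4 genes, every day 7 mouse lay below every day 3 mouse.

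The helicase genes showed the unlike pairs of day 3 mice. Mcm6, a subunit of the licensing helicase, was at 65.5 and 38.3 CPM in day 3 replicates 1 and 2 and at 170 and 174 CPM in replicates 3 and 4, and at day 7 it was at 26.2, 28.5, 23.2 and 25.6 CPM (log2 fold change -2.11, SE 0.39, adjusted p = 0.0196). Mcm2 was at 53.4, 30.6, 131 and 180 CPM at day 3 and at 16.4, 26, 24.6 and 26.5 CPM at day 7 (log2 fold change -2.08, adjusted p = 0.0321). Cdc6, which loads the helicase, had 8.12, 4.15, 26.5 and 27.6 CPM at day 3 and 4.81, 2.64, 1.96 and 2.58 CPM at day 7, and here day 3 replicate 2 lay below day 7 replicate 1 (log2 fold change -2.47, adjusted p = 0.0401). Uhrf1, which carries DNA methylation through replication, was at 25.7, 16.8, 84.2 and 92.3 CPM at day 3 and at 13.2, 14, 13.9 and 8.74 CPM at day 7 (log2 fold change -2.14, adjusted p = 0.0374). The pair with more replication RNA was the pair with fewer leukocyte markers, and the part of that in these values was not tested. With day 3 replicates 3 and 4 left out 23 replication genes were called lower beside 12.3% of all tested genes (11.1% higher), and with replicates 1 and 2 left out 37 beside 1.92% (0.652% higher). DESeq2 called 42 of the 50 lower beside 4.06% of all tested genes and 1, Fen1, higher beside 2.63%.

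Pcna, the sliding clamp, was lower at day 7 than in healthy LSECs in every mouse. It stood at 388, 304, 331 and 191 CPM at day 3, at 130, 121, 148 and 146 CPM at day 7 (log2 fold change -1.15, SE 0.24, adjusted p = 0.0311) and at 164 to 338 CPM in healthy LSECs. Tk1, thymidine kinase, remained above healthy LSECs (8.73 to 14.4 CPM) at both times, with 29.9 to 64.2 CPM at day 3 and 17.8 to 24.7 CPM at day 7 (log2 fold change -1.24, adjusted p = 0.0323). Exo1, a repair exonuclease outside the replication list, was at 4.00, 4.24, 11.9 and 14.3 CPM at day 3 and at 1.51 to 2.41 CPM at day 7 (log2 fold change -2.20, adjusted p = 0.0232). Among 23 regulators of the step from G1 to S phase, a list drawn after the values were seen, 4 were called lower (Ccne1, Ccne2, Cks1b and Rbl1), which is 17.4% against 1.36% of all tested genes. The count became 1, 5, 1 and 3 without each day 3 mouse in turn and 1, 2, 0 and 0 without each day 7 mouse. Ccne1, a cyclin that starts S phase, was at 9.69, 5.92, 19.3 and 13 CPM at day 3 and at 3.37, 5.24, 3.57 and 4.01 CPM at day 7 (log2 fold change -1.56, adjusted p = 0.0323).

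**Figure D2:**
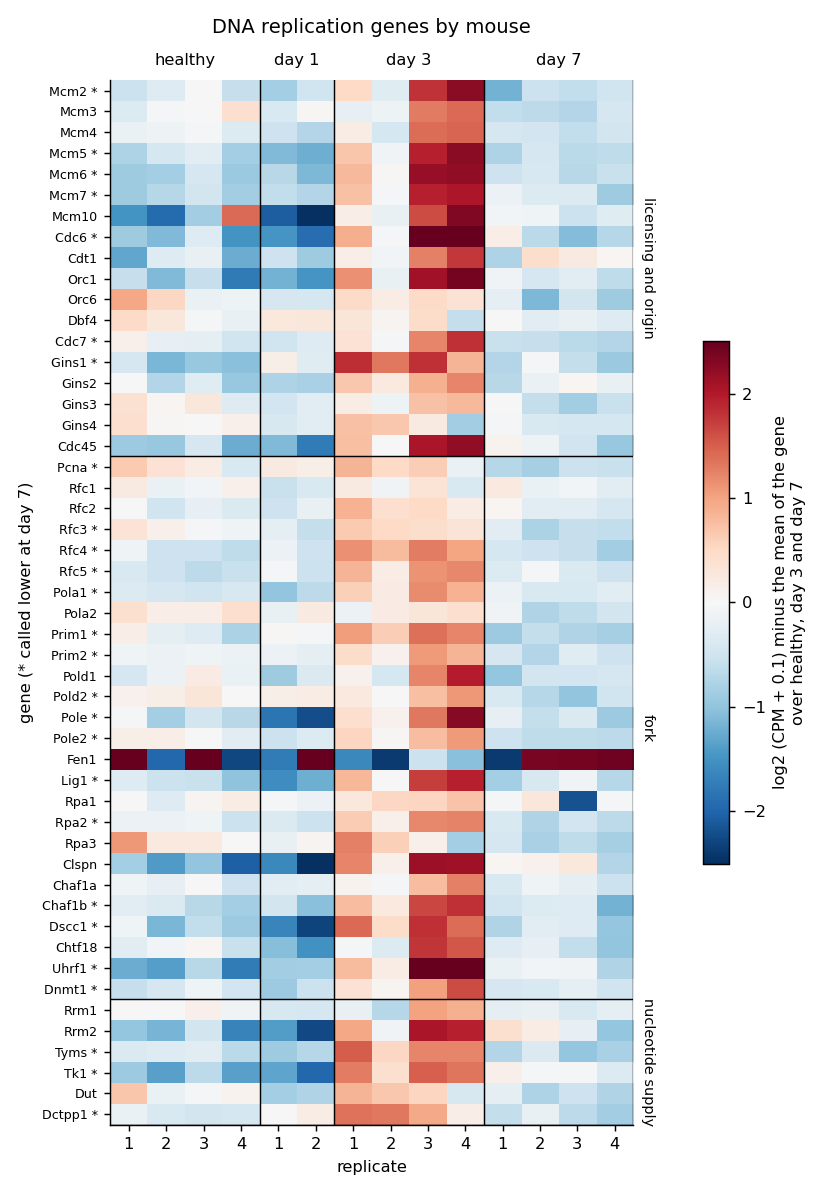
Rows are replication genes and columns are single mice of the 4 groups, and colour is log2(CPM + 0.1) minus the gene's mean over the healthy, day 3 and day 7 mice. Stars mark the genes called lower at day 7, and day 3 replicates 3 and 4 hold most of the highest values.

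Mitotic genes moved less clearly than replication genes. Of 63 tested, 3 were called lower (4.76%) and 1 higher (1.59%), against 1.36% and 0.413% of all tested genes. Of the 63, 62 had a negative log2 fold change, with a median of -0.84. Mean log2 CPM was 4.22, 3.37, 4.92 and 5.02 in the day 3 mice and 4.02, 4.08, 3.63 and 2.95 in the day 7 mice, so that the groups overlapped, while healthy LSECs lay between 2.12 and 3.35. Without each day 3 mouse in turn the number called lower was 0, 4, 0 and 5, and without each day 7 mouse 0, 1, 0 and 0. Cdk1, the kinase of mitotic entry, was at 132, 97.5, 137 and 102 CPM at day 3 and at 54.0, 48.7, 38.7 and 28.4 CPM at day 7 (log2 fold change -1.46, SE 0.28, adjusted p = 0.0206). Mad2l1, of the spindle checkpoint, went from 22.9 to 52.5 CPM to 8.36 to 16.7 CPM (log2 fold change -1.51, adjusted p = 0.0349), and Smc2, a condensin, from 81.9 to 145 CPM to 46.7 to 63.7 CPM (log2 fold change -1.06, adjusted p = 0.0209). The groups did not overlap for any of the 3.

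The proliferation marker Mki67 was not called. It was at 90.0, 51.8, 186 and 209 CPM at day 3 and at 71.8, 116, 86.6 and 52.6 CPM at day 7, and the log2 fold change of -0.71 (SE 0.46, adjusted p = 0.425) became 0.34 without day 3 replicates 3 and 4. Healthy LSECs stood at 13.5 to 48.1 CPM. Of the 8 genes of augmin, which branches spindle microtubules and was likewise looked up after the values were seen, 5 were called lower (62.5%, against 1.36% of all tested genes). Their mean log2 CPM over all 8 was 4.27 to 4.58 at day 3 and 3.36 to 3.82 at day 7. None of the 8 remained called without day 3 replicate 1 or 3 or any 1 day 7 mouse. Haus6, an augmin subunit, was at 13, 12.8, 21.3 and 26.2 CPM at day 3 and at 8.76, 7.89, 9.70 and 6.65 CPM at day 7 (log2 fold change -1.15, adjusted p = 0.0376).

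Cenpa, the histone variant that marks centromeres, went against the other mitotic genes. It stood at 52.1, 38.7, 50.2 and 42.0 CPM at day 3, at 101, 81.9, 110 and 92.3 CPM at day 7 and at 90.8 to 155 CPM in healthy LSECs. Its rise of 1.07 on the log2 scale (SE 0.19, adjusted p = 0.0172) held in every day 7 mouse against every day 3 mouse, and without day 7 replicate 3 its adjusted p was 0.0675.

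Many genes that build ribosomes fell, evenly between mice. This list and those for nucleotide synthesis, tubulins, small nuclear ribonucleoproteins, aminoacyl-tRNA synthetases, polyamines, G1 to S regulators, augmin, Myc antagonists and FoxO targets were chosen after the values had been seen, so that their counts describe and do not test them. Of 73 nucleolar genes of ribosome biogenesis, 33 (45.2%) were called lower and 0 higher, against 1.36% and 0.413% of all tested genes. Of the 73, 51 lay entirely below at day 7, as did 4.15% of all tested genes. The mean log2 CPM of the 73 was 5.35, 5.42, 5.52 and 5.29 at day 3 and 4.65, 4.59, 4.57 and 4.69 at day 7. The day 7 mice were thus below healthy LSECs (4.87 to 5.16) as well as below day 1 LSECs (5.87 and 5.58). Unlike the replication genes, the day 3 pairs did not stand apart in this mean. The calls were 9, 20, 6 and 34 without each day 3 mouse in turn and 9, 10, 1 and 2 without each day 7 mouse. The median log2 fold change, -0.81 with all mice, was -0.80 to -0.58 over these 8 omissions, a smaller fall in each. The median over all tested genes, -0.10 with all mice, was -0.11 to 0.05 in the same fits.

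Among the proteins that modify ribosomal RNA by guide RNAs, 6 of 9 genes were called lower. Nop56, a core protein of the C/D type, was at 91.8, 116, 112 and 81.4 CPM at day 3 and at 32.9, 35.8, 44.1 and 47.1 CPM at day 7 (log2 fold change -1.32, SE 0.17, adjusted p = 0.00714), and it overlaps snoRNA genes such as Snord110. Nhp2, of the H/ACA type, was at 126, 141, 80.2 and 49.9 CPM at day 3 and at 27.6, 30.8, 28.0 and 20.5 CPM at day 7 (log2 fold change -1.89, SE 0.28, adjusted p = 0.00809). Dkc1, the pseudouridine synthase, went from 34.4 to 55.1 CPM to 20.5 to 22.1 CPM (log2 fold change -1.22, adjusted p = 0.00714), and Fbl, the methyltransferase, from 67.0 to 138 CPM to 49.8 to 56.5 CPM (log2 fold change -1.04, adjusted p = 0.0348). Nolc1, a nucleolar scaffold, went from 68.2 to 98.5 CPM to 33.9 to 56.9 CPM (log2 fold change -0.92, adjusted p = 0.0324). Of 26 genes of large subunit assembly 16 were called lower, among them Nop16, which went from 33.4 to 61.1 CPM to 20.9 to 32.8 CPM (log2 fold change -0.94, adjusted p = 0.0324). Among 27 small subunit processome genes there were 9, and among 11 genes of RNA polymerase I and nucleolar proteins 2.

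The proteins of the ribosome itself did not pass the test with all 8 mice. All 33 cytosolic ribosomal protein genes had a negative log2 fold change, with a median of -0.81, but 0 were called in edgeR's test, and 1 of the 33 lay entirely below at day 7. Without day 3 replicate 4 the same test called 18 lower beside 4.56% of all tested genes, and it called 0 without any other 1 mouse. With all 8 mice DESeq2 called 3 lower beside 4.06% of all tested genes, and limma-voom with sample weights called 32 beside 14.5% (8.02% higher). Their mean log2 CPM was 9.35, 9.22, 8.32 and 7.63 at day 3 and 7.75, 8.19, 8.10 and 7.84 at day 7, so that day 3 replicate 4 lay below the day 7 mice. Proteasome subunits were similar, with 3 of 36 called lower (8.33%, against 1.36% of all tested genes), 36 negative values and a median of -0.72. Psmd14, a deubiquitinase of the regulatory particle, was at 168, 131, 102 and 71.5 CPM at day 3 and at 69.1, 55.5, 51.5 and 48.2 CPM at day 7 (log2 fold change -1.07, adjusted p = 0.0344). The other calls were Psmc4 (log2 fold change -0.73, adjusted p = 0.0481) and Psmd1 (log2 fold change -0.64, adjusted p = 0.0429). Without day 3 replicate 4 the count was 27 beside 4.56% of all tested genes, whereas it was 0 without any other 1 mouse.

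Genes of nucleotide synthesis outside the replication list were among the falls. Of 26 genes 12 (46.2%) were called lower and 0 higher, against 1.36% and 0.413% of all tested genes. The calls were 7 of 10 for pyrimidines and 5 of 16 for purines. Mean log2 CPM was 5.03 to 5.35 in day 3 mice and 4.19 to 4.34 in day 7 mice, where healthy LSECs had 4.41 to 4.50. Without each day 3 mouse in turn the count was 3, 8, 3 and 11, and without each day 7 mouse 5, 5, 0 and 1. Ctps, which makes CTP, was at 18.2, 23.9, 30.5 and 26.6 CPM at day 3 and at 5.89, 8.10, 7.81 and 9.41 CPM at day 7 (log2 fold change -1.67, SE 0.24, adjusted p = 0.00714). Mthfd2, the mitochondrial folate enzyme, went from 13.4 to 20.6 CPM to 4.23 to 6.93 CPM (log2 fold change -1.76, adjusted p = 0.0206). Umps, the last enzyme of UMP synthesis, went from 24.9 to 30.0 CPM to 9.26 to 16.6 CPM (log2 fold change -0.99, adjusted p = 0.0273), and Dtymk, which phosphorylates dTMP, from 48.9 to 87.8 CPM to 30.9 to 39.1 CPM (log2 fold change -0.93, adjusted p = 0.0347).

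Further genes of growth were lower by the same test. Odc1, the first enzyme of polyamine synthesis, was at 215, 296, 344 and 277 CPM at day 3 and at 72.6, 72.1, 124 and 125 CPM at day 7 (log2 fold change -1.53, SE 0.25, adjusted p = 0.0108), with 160 to 276 CPM in healthy LSECs. Of 13 polyamine genes 3 were called lower (23.1%, against 1.36% of all tested genes). Without each day 3 mouse in turn there were 2, 3, 1 and 4, and without each day 7 mouse 1, 3, 0 and 1. Of 24 genes of Sm, LSm and SMN proteins, which form and assemble the spliceosome's ribonucleoproteins, 7 (29.2%) were called lower, against 1.36% of all tested genes. The count became 1, 3, 1 and 15 without each day 3 mouse in turn and 2, 1, 1 and 1 without each day 7 mouse. Snrpd1, an Sm ring protein, was at 216, 220, 101 and 54.5 CPM at day 3 and at 45.5, 47.8, 47.8 and 39.9 CPM at day 7 (log2 fold change -1.71, adjusted p = 0.0349). Cytosolic aminoacyl-tRNA synthetases and their scaffold had 5 of 23 called lower (21.7%, against 1.36% of all tested genes), with a median of -0.52. The count was 0 to 5 when 1 mouse was left out (0 without day 3 replicate 1 or day 7 replicate 2, 3 or 4). Pgk1 was the 1 call among 17 glycolysis genes (5.88%, against 1.36% of all tested genes). It went from 154 to 187 CPM to 74.4 to 111 CPM (log2 fold change -0.89, adjusted p = 0.0177). Txnrd1 was the 1 call among 14 Nrf2 targets and metallothioneins (7.14%, against the same 1.36%). It went from 77.5 to 111 CPM to 35.7 to 59.0 CPM (log2 fold change -0.92, adjusted p = 0.0244).

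Tubulins and the chaperonin that folds them had 9 of 20 genes called lower (45%) and 0 higher, against 1.36% and 0.413% of all tested genes. Without each day 3 mouse in turn the count was 1, 6, 1 and 10, and without each day 7 mouse 1, 4, 0 and 0. Tubb6, a beta-tubulin, was at 144, 125, 196 and 232 CPM at day 3 and at 70.2, 79.2, 55.8 and 77.2 CPM at day 7 (log2 fold change -1.30, SE 0.21, adjusted p = 0.0115). Tubb3, better known from neurons, was at 20.5, 34.6, 4.12 and 5.02 CPM at day 3 and at 2.29, 2.80, 1.12 and 1.66 CPM at day 7 (log2 fold change -3.02, adjusted p = 0.0263), and it overlaps Gm20388. Tuba1a went from 277 to 393 CPM to 154 to 231 CPM (log2 fold change -0.77, adjusted p = 0.0465), and the chaperonin subunit Cct2 from 131 to 165 CPM to 78.1 to 99.4 CPM (log2 fold change -0.74, adjusted p = 0.0432). Tubulin genes are near-identical in parts, and the division of reads between them is uncertain.

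**Figure D3:**
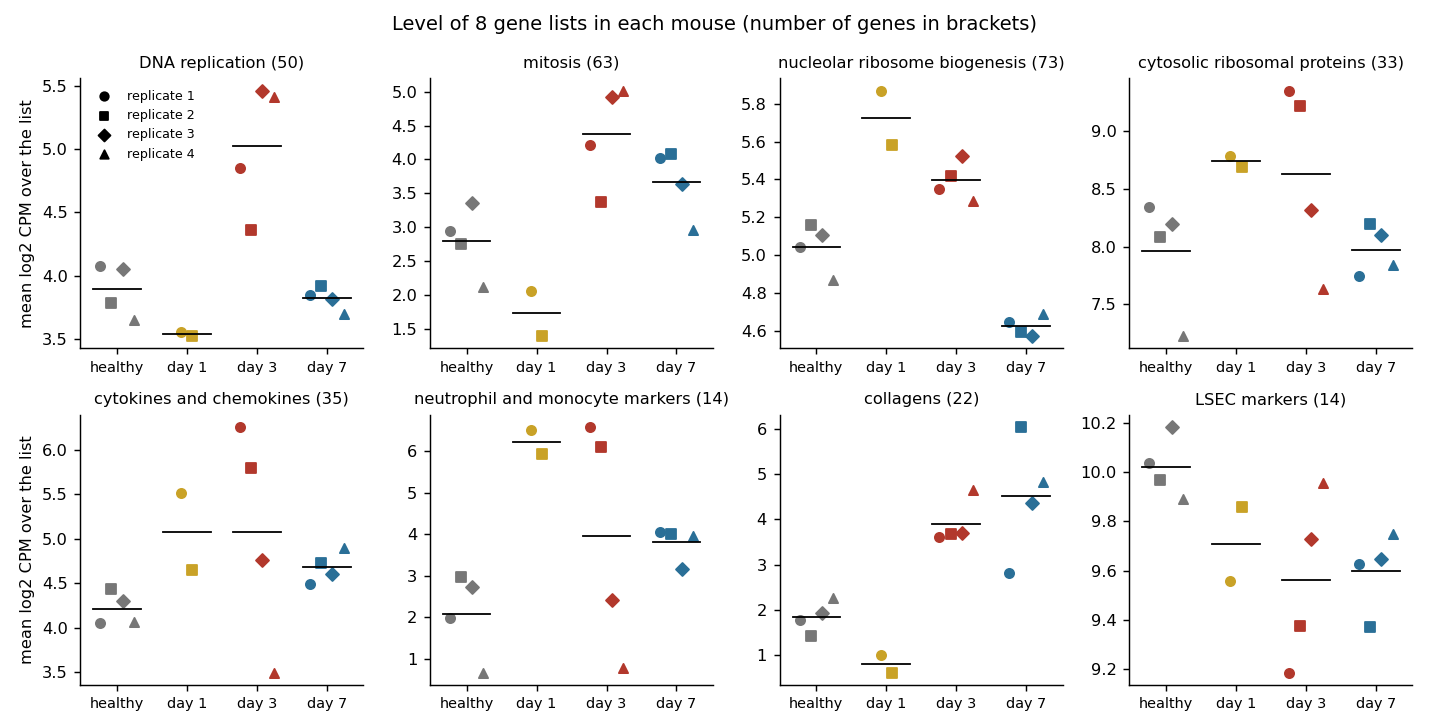
Mean log2 CPM of the genes of 8 lists is plotted per mouse, with 1 point for each mouse of the 4 groups, marker shape for the replicate number and a bar for the group mean. Replication genes lay at 4.36 to 5.46 at day 3 and 3.70 to 3.92 at day 7, nucleolar genes at 5.29 to 5.52 and 4.57 to 4.69.

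A few genes of growth arrest were among the rises. Cdkn1c (chromosome 7, 143458339 to 143461050), which encodes the CDK inhibitor p57, was at 10.9, 11.9, 8.57 and 9.99 CPM at day 3 and at 39.3, 26.7, 43.0 and 32.5 CPM at day 7, an increase of 1.77 on the log2 scale (SE 0.23, adjusted p = 0.00714). The groups were well apart, and the day 7 values reached those of healthy LSECs (32.1 to 62.1 CPM). Trp53inp1, a stress-induced partner of p53, was at 14.2, 15.5, 17.4 and 20.6 CPM at day 3 and at 47.3, 45.1, 41.5 and 30.6 CPM at day 7 (log2 fold change 1.28, SE 0.18, adjusted p = 0.00714). Of 21 genes of the p53 and growth arrest list 3 were called higher (14.3%) and 1 lower (4.76%), against 0.413% and 1.36% of all tested genes. The third called higher was Sesn1. Bax, which opens the mitochondrial outer membrane in apoptosis, was called lower, from 126 to 203 CPM to 78.8 to 99.7 CPM (log2 fold change -0.94, adjusted p = 0.0292). The median of the list was 0.08, and 9 of its 21 values were negative. Of its 5 CDK inhibitors Cdkn1c was the 1 call, 3 had negative values and the median was -0.10. Mxd4, which competes with Myc for its partner Max, was at 156, 141, 128 and 122 CPM at day 3 and at 310, 223, 259 and 255 CPM at day 7 (log2 fold change 0.94, SE 0.16, adjusted p = 0.0143). It was the 1 call among 13 genes of the Myc and Mxd network (7.69%, against 0.413% of all tested genes).

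Of 24 genes known as targets of FoxO factors, 5 (20.8%) were called higher and 0 lower, against 0.413% and 1.36% of all tested genes. The list was drawn after the values were seen, so that the count describes it and does not test it. Its median was 0.29, and 8 values were negative. Without each day 3 mouse in turn the count was 1, 2, 3 and 6, and without each day 7 mouse 1, 2, 0 and 2. DESeq2 called 6 higher and 1 lower, beside 2.63% and 4.06% of all tested genes. The voom fit called 7 higher and 2 lower, beside 8.02% and 14.5%. Txnip, which binds thioredoxin and limits glucose uptake, was at 295, 192, 261 and 309 CPM at day 3 and at 866, 421, 517 and 683 CPM at day 7 (log2 fold change 1.23, SE 0.24, adjusted p = 0.0263). Klhl24 was at 54.5, 57.0, 51.7 and 73.7 CPM at day 3 and at 148, 121, 125 and 96.6 CPM at day 7 (log2 fold change 1.05, SE 0.17, adjusted p = 0.0108), above healthy LSECs (71.4 to 85.6 CPM) in every mouse. Fbxo32, a ubiquitin ligase subunit, rose from 9.0 to 19.2 CPM to 23.5 to 38.1 CPM (log2 fold change 1.19, adjusted p = 0.0323) and also lay above healthy LSECs (10.9 to 15.6 CPM). Sesn1, a leucine sensor that restrains mTORC1, rose from 20.1 to 35.9 CPM to 48.3 to 79.5 CPM (log2 fold change 0.97, adjusted p = 0.0383), and Pink1, a kinase of mitophagy, from 43.8 to 54.7 CPM to 75.0 to 85.9 CPM (log2 fold change 0.67, adjusted p = 0.0429). For all 5 genes the day 7 mice lay entirely above the day 3 mice.

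**Figure D4:**
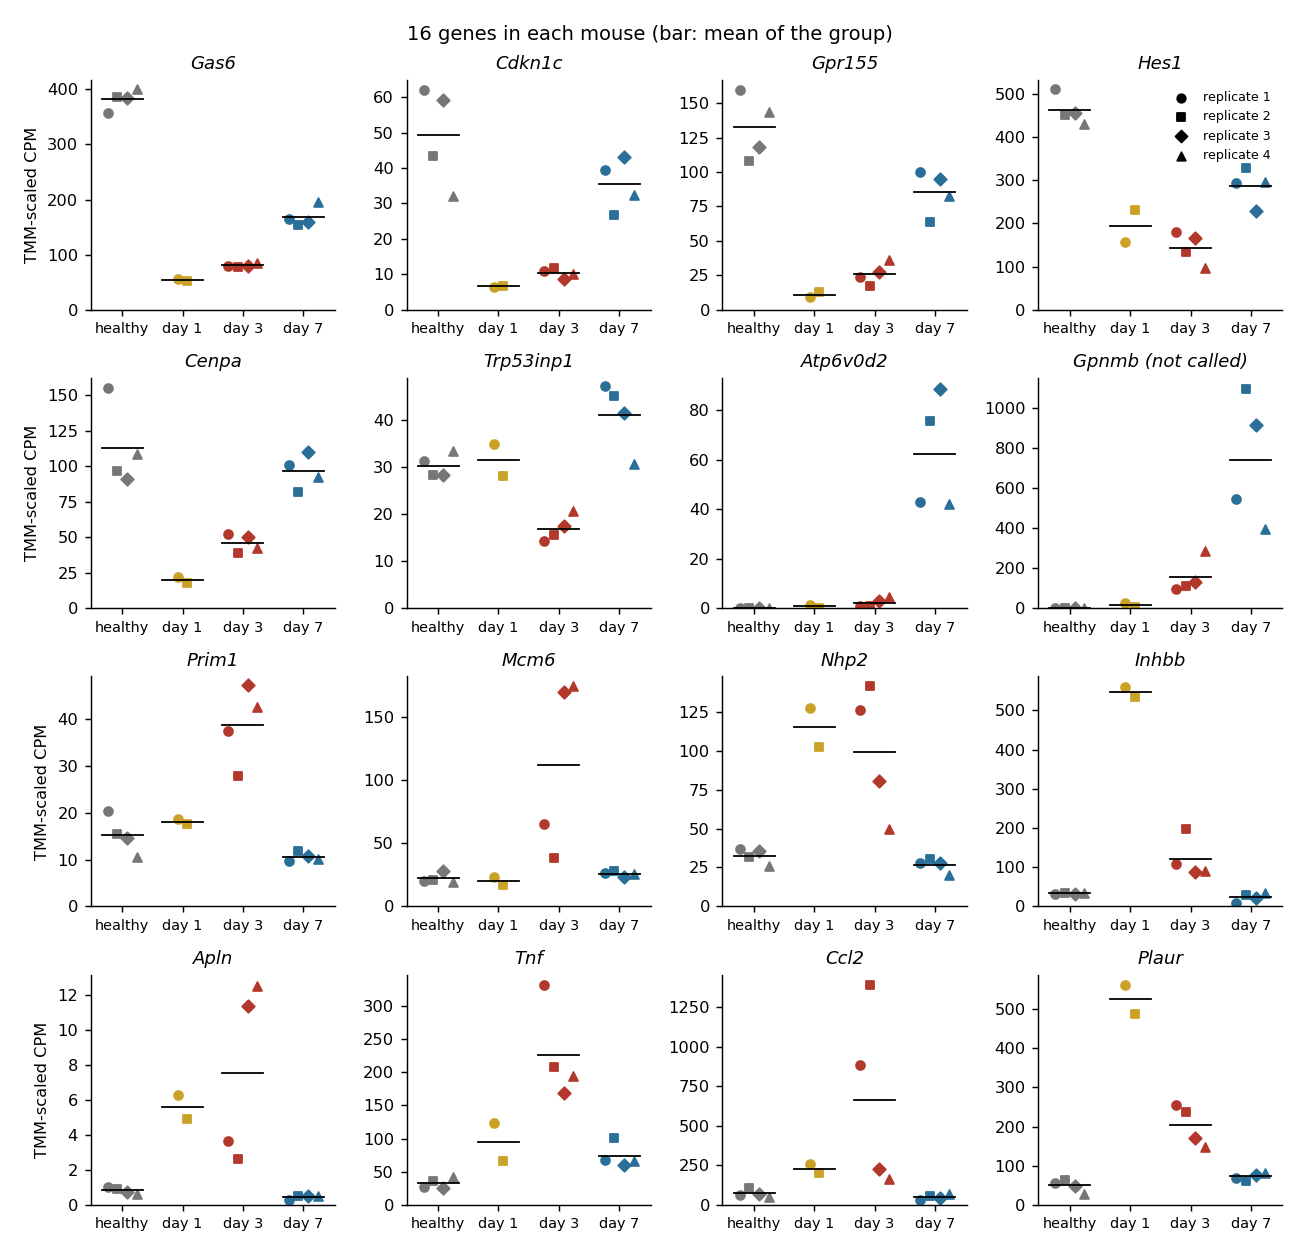
TMM-scaled CPM of 16 genes is plotted on linear axes from 0 for each mouse of the 4 groups, with marker shape for the replicate number and a bar for the group mean. Gas6, Cdkn1c, Gpr155, Hes1, Cenpa, Trp53inp1 and Atp6v0d2 were called higher at day 7, Prim1, Mcm6, Nhp2, Inhbb, Apln, Tnf, Ccl2 and Plaur were called lower, and Gpnmb was not called.

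Endothelial signalling genes moved both ways, with 3 of 52 called higher and 3 lower (5.77% each, against 0.413% and 1.36% of all tested genes). The Notch targets Hey1 and Hes1 rose. Hey1 was at 3.18, 2.38, 3.25 and 2.80 CPM at day 3 and at 8.18, 11.2, 8.14 and 10.8 CPM at day 7 (log2 fold change 1.72, SE 0.27, adjusted p = 0.0108), within the range of healthy LSECs up to 10.7 CPM in all but 2 mice. Hes1 was at 181, 134, 166 and 95.6 CPM at day 3 and at 293, 327, 230 and 296 CPM at day 7 (log2 fold change 0.99, adjusted p = 0.0326), below healthy LSECs (430 to 512 CPM). Smad7, which inhibits TGF beta signalling, rose from 58.9 to 78.7 CPM to 101 to 118 CPM (log2 fold change 0.72, adjusted p = 0.0343).

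Apln (chromosome X, 48025146 to 48034853), the apelin ligand of sprouting endothelial tip cells, showed the largest of these falls. It was at 3.66, 2.60, 11.3 and 12.5 CPM at day 3 and at 0.260, 0.517, 0.529 and 0.500 CPM at day 7 (log2 fold change -4.06, SE 0.52, adjusted p = 0.00714), below healthy LSECs (0.630 to 1.02 CPM). Angpt2, the angiopoietin that loosens vessels, went from 76.8 to 104 CPM to 33.1 to 54.6 CPM (log2 fold change -0.96, adjusted p = 0.0443), and this call was lost without any 1 of the 8 mice. Inhbb, the beta B subunit of inhibin and activin, was at 108, 198, 87.4 and 90.2 CPM at day 3 and at 9.98, 28.0, 20.7 and 33.7 CPM at day 7 (log2 fold change -2.39, SE 0.34, adjusted p = 0.00715), where day 1 LSECs had 559 and 535 CPM. Of the VEGF genes 0 of 9 and of the Wnt genes 0 of 6 were called, and Kdr, the main VEGF receptor, was at 821, 848, 1493 and 2031 CPM at day 3 and at 1357 to 1703 CPM at day 7 (log2 fold change 0.25, adjusted p = 0.652).

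Gas6 (chromosome 8, 13465374 to 13494490), a bridging ligand by which TAM receptors recognise dead cells, rose evenly. It was at 79.4, 77.8, 79.9 and 85.3 CPM at day 3 and at 165, 153, 159 and 195 CPM at day 7 (log2 fold change 1.06, SE 0.13, adjusted p = 0.00712), which remained below healthy LSECs (358 to 400 CPM). Gpr155, a lysosomal cholesterol sensor, was at 24.1, 17.0, 27.7 and 36.3 CPM at day 3 and at 99.9, 63.6, 95.2 and 82.3 CPM at day 7 (log2 fold change 1.70, SE 0.24, adjusted p = 0.00714), again below healthy LSECs (108 to 159 CPM). F8, coagulation factor VIII, for which LSECs are a main source, was at 453, 458, 570 and 541 CPM at day 3 and at 1385, 730, 781 and 850 CPM at day 7 (log2 fold change 0.89, adjusted p = 0.0429). Sele, the leukocyte adhesion molecule E-selectin, was at 138, 237, 145 and 119 CPM at day 3 and at 67.5, 35.4, 31.7 and 65.9 CPM at day 7 (log2 fold change -1.67, SE 0.34, adjusted p = 0.0289), and it remained above healthy LSECs (13.1 to 26.4 CPM). F8 and Sele were the 2 calls among 24 adhesion and shear genes (4.17% higher and 4.17% lower, against 0.413% and 1.36% of all tested genes). Both calls held without day 3 replicate 4 and were lost without any other 1 mouse.

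Of 27 endothelial transcription factors 0 were called in edgeR's test and 22 had a positive log2 fold change, with a median of 0.28. DESeq2 called 3 of the factors higher beside 2.63% of all tested genes, and the voom fit called 14 beside 8.02%. Without day 3 replicates 3 and 4 edgeR's test called 15 higher beside 11.1%. Without replicates 1 and 2 it called 0 beside 0.652%. None was called lower in these fits. Klf2, a flow-induced factor, was at 348, 266, 687 and 1017 CPM at day 3 and at 483, 956, 1580 and 1632 CPM at day 7 (log2 fold change 1.00, SE 0.42, adjusted p = 0.225). Maf, an LSEC identity factor, was at 428, 309, 517 and 412 CPM at day 3 and at 676, 590, 785 and 610 CPM at day 7 without overlap, yet it missed the threshold (log2 fold change 0.68, SE 0.18, adjusted p = 0.0822). None of 24 scavenger and lectin receptors was called, and Fcgr2b, which encodes the sorted CD32b itself, had a log2 fold change of 0.22 (adjusted p = 0.598). Lyve1, a hyaluronan receptor, was at 779 to 1057 CPM at day 3 and at 455 to 682 CPM at day 7 (log2 fold change -0.69, adjusted p = 0.139). Of the lists the study drew from human livers for healthy LSECs and damaged LSECs, 0 of 48 and 0 of 15 genes were called in edgeR's test, with medians of 0.24 and -0.43. The voom fit called 10 and 2 of them higher and 5 and 5 lower, beside 8.02% and 14.5% of all tested genes. DESeq2 called 3 and 0 higher and 1 and 1 lower, beside 2.63% and 4.06%. Fabp4, of the damaged LSEC list, was at 2203, 1963, 1234 and 537 CPM at day 3 and at 511 to 1005 CPM at day 7 (log2 fold change -0.95, adjusted p = 0.203).

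A few inflammatory mediators fell. Of 35 cytokines and chemokines 5 (14.3%) were called lower and 0 higher, against 1.36% and 0.413% of all tested genes, and 11 had positive values. The median was -0.67, between -0.91 and -0.04 when 1 mouse was left out, and the 10 CXC chemokines had a median of 0.07 with 7 positive values. Their mean log2 CPM was 6.25, 5.79, 4.76 and 3.50 in the day 3 mice, the same order as their neutrophil and monocyte markers, and 4.49 to 4.90 at day 7. Without day 3 replicates 1 and 2, 1 was called beside 1.92% of all tested genes, and without replicates 3 and 4, 14 beside 12.3%, and the part of leukocytes in these results was not tested. Leaving out 1 mouse at a time gave 1, 2, 4 and 7 calls for day 3 and 1, 2, 0 and 0 for day 7. Neutrophil gene S100a9 was at 2108, 1182, 23.5 and 7.05 CPM at day 3 and at 46.5 to 90.0 CPM at day 7 (log2 fold change -3.54, SE 1.26, adjusted p = 0.178), and without day 3 replicates 1 and 2 its log2 fold change was 2.27. In edgeR's test none of the 14 neutrophil and monocyte markers was called, although their median was -1.80 with 3 positive values. DESeq2 called 5 lower beside 4.06% of all tested genes and the voom fit 6 beside 14.5%. Without day 3 replicate 4 edgeR's test called 4 lower beside 4.56%, and without replicates 3 and 4 it called 8 beside 12.3%. Without replicates 1 and 2 it called 0 lower and 1 higher, beside 1.92% and 0.652%. All 14 were detected in each library except 1 in day 3 replicate 3 and 3 in day 3 replicate 4.

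Ccl2 (chromosome 11, 82035571 to 82037453), the chemokine that draws monocytes, was at 882, 1388, 224 and 163 CPM at day 3 and at 31.7, 58.0, 42.3 and 65.4 CPM at day 7 (log2 fold change -3.75, SE 0.60, adjusted p = 0.0108). Even the lowest day 3 mouse was above the highest day 7 mouse, and day 7 lay in the range of healthy LSECs or below it (49.6 to 106 CPM). Its neighbour Ccl7, another monocyte chemokine, was at 310, 351, 86.3 and 41.0 CPM at day 3 and at 12.0, 32.9, 18.1 and 26.4 CPM at day 7 (log2 fold change -3.14, adjusted p = 0.0232). Tnf, a cytokine that activates endothelium, had a narrower spread than Ccl2 at day 3, at 332, 209, 169 and 195 CPM, and was at 67.2, 100, 60.4 and 66.0 CPM at day 7 (log2 fold change -1.62, SE 0.28, adjusted p = 0.0140). Cxcl1, a neutrophil chemokine, went from 539 to 1842 CPM to 298 to 494 CPM (log2 fold change -1.76, adjusted p = 0.0289), and Ccl4 from 128 to 840 CPM to 70.8 to 111 CPM (log2 fold change -2.18, adjusted p = 0.0436). Slfn4, a myeloid gene, was at 49.1, 26.3, 5.30 and 9.16 CPM at day 3 and at 2.52 to 3.37 CPM at day 7 (log2 fold change -3.03, adjusted p = 0.0394). Pf4, a platelet and megakaryocyte chemokine that macrophages also express, went from 43.1 to 149 CPM to 10.8 to 24.3 CPM (log2 fold change -2.35, SE 0.42, adjusted p = 0.0172). It was the 1 call among 10 erythroid and platelet markers (10%, against 1.36% of all tested genes). Their summed level was 218 to 1410 CPM at day 3 and 300 to 991 CPM at day 7.

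The plasminogen system, which dissolves fibrin and activates matrix proteases, had 2 of 5 genes called lower, and 2 of the 5 had positive values. Among all 26 matrix proteases and inhibitors these 2 genes were the only calls (7.69%, against 1.36% of all tested genes). Of the 26, 15 had positive values, and the median was 0.27. Without each day 3 mouse in turn the number called lower was 1, 2, 1 and 2, and without each day 7 mouse 1, 1, 0 and 0. Plaur, the urokinase receptor, was at 254, 238, 172 and 147 CPM at day 3 and at 68.9, 61.9, 76.8 and 82.2 CPM at day 7 (log2 fold change -1.49, SE 0.25, adjusted p = 0.0130). Plau, urokinase, was at 84.6, 47.9, 67.7 and 100 CPM at day 3 and at 11.8, 29.5, 30.0 and 23.3 CPM at day 7 (log2 fold change -1.67, SE 0.32, adjusted p = 0.0222). Among 43 matrix proteins other than collagens the 1 call (2.33%, against 1.36% of all tested genes) was Ccn2, connective tissue growth factor. It was at 146, 239, 322 and 356 CPM at day 3 and at 121, 90.6, 94.9 and 46.7 CPM at day 7 (log2 fold change -1.59, adjusted p = 0.0496). This call was lost without any 1 of the 8 mice. Fosl1, an AP-1 subunit, was the 1 call among 20 immediate early genes (5%, against the same 1.36%). It went from 1.32 to 6.23 CPM to 0.488 to 1.25 CPM (log2 fold change -1.82, adjusted p = 0.0481), where day 1 LSECs had 41.6 and 44.9 CPM.

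Collagens were uneven between the mice. None of 22 was called and 18 had a positive log2 fold change, with a median of 1.02 that became -0.01 without day 7 replicate 2. Their mean log2 CPM was 3.60 to 4.65 at day 3 and 2.82, 6.04, 4.36 and 4.83 at day 7, and 10 myofibroblast markers followed the same order at day 7, at 1.96, 6.05, 4.25 and 4.90. Col1a2, a fibrillar collagen, was at 136, 86.9, 157 and 607 CPM at day 3 and at 75.5, 1691, 241 and 358 CPM at day 7 (log2 fold change 1.26, SE 0.78, adjusted p = 0.412). The basement membrane genes Col4a1 (log2 fold change -0.75, SE 0.32, adjusted p = 0.234) and Col4a2 (log2 fold change -0.85, SE 0.29, adjusted p = 0.158) went the other way without passing the test, from 631 to 1587 CPM to 275 to 703 CPM and from 495 to 1260 CPM to 255 to 496 CPM. Sparc, a matrix glycoprotein, was at 3907 to 4780 CPM at day 3 and at 2714 to 3703 CPM at day 7 (log2 fold change -0.49, adjusted p = 0.150). Several of the largest rises were highest in the same day 7 replicate 2, among them Cpxm1 (3.99 to 7.46 CPM at day 3, and 8.67, 113, 14.9 and 28.8 CPM at day 7), the heparan sulfatase Sulf1 (0.180 to 1.24 CPM at day 3, and 1.92, 11.3, 2.38 and 6.80 CPM at day 7), Sned1 (2.55 to 4.76 CPM at day 3, and 11, 35.2, 18.3 and 22.5 CPM at day 7) and Ahnak2 (1.02 to 2.21 CPM at day 3, and 8.63, 22.3, 10.8 and 7.21 CPM at day 7). Their log2 fold changes were 2.88 (adjusted p = 0.0414), 3.21 (adjusted p = 0.0362), 2.44 (adjusted p = 0.00799) and 2.82 (adjusted p = 0.00799). The part of stromal cells in these values was not tested.

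Atp6v0d2 (chromosome 4, 19876841 to 19922605), a subunit of the vacuolar proton pump of osteoclasts and phagocytes, had the largest rise of the genes named here that overlap no other. It was at 1.02, 0.748, 2.95 and 4.30 CPM at day 3 and at 42.8, 75.5, 88.7 and 42.2 CPM at day 7 (log2 fold change 4.78, SE 0.92, adjusted p = 0.0223), with at most 0.129 CPM in healthy LSECs. The call held without day 3 replicate 4 and was lost without any other 1 mouse (adjusted p up to 0.104), although the groups were far apart. Ctsk, a collagen-degrading cathepsin, was at 13.8, 11.6, 12.8 and 12.0 CPM at day 3 and at 21.6, 45.4, 39.6 and 17.6 CPM at day 7 (log2 fold change 1.30, adjusted p = 0.0429). These were the 2 calls among 33 phagocyte lysosome genes (6.06% higher, against 0.413% of all tested genes), whose median was 0.10. Gpnmb, a glycoprotein of lipid-laden macrophages, was at 94.1, 110, 132 and 287 CPM at day 3 and at 543, 1095, 916 and 398 CPM at day 7 without overlap but was not called (log2 fold change 2.24, SE 0.75, adjusted p = 0.153). Spp1, osteopontin, was at 997, 1164, 313 and 351 CPM at day 3 and at 2557, 5238, 1634 and 567 CPM at day 7 (log2 fold change 1.82, adjusted p = 0.145), and Lyz2, lysozyme of myeloid cells, at 8376, 5488, 1347 and 1266 CPM and at 6837, 9304, 9056 and 3919 CPM (log2 fold change 0.82, adjusted p = 0.459). The 12 Kupffer cell markers, which include none that was called, summed to 735 to 1674 CPM at day 3 and 775 to 2033 CPM at day 7, and the part of macrophages in these rises was not tested.

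Other large changes stood outside the lists. Igf2, a fetal growth factor, was at 0.0968, 0.0851, 0.109 and 0 CPM at day 3 and at 0.530, 1.96, 2.56 and 1.5 CPM at day 7 (log2 fold change 4.47, SE 0.89, adjusted p = 0.0263), and 3 annotated genes overlap it. Htr2b, a serotonin receptor, was at 0.170 to 0.557 CPM at day 3 and at 1.01 to 2.73 CPM at day 7 (log2 fold change 2.36, adjusted p = 0.0327), and it lies within Psmd1, which moved the opposite way. The rise of 4933428G20Rik (1.34 to 4.26 CPM to 7.78 to 10.4 CPM, log2 fold change 1.77, adjusted p = 0.0206) overlaps Arhgap23. Gm44503 was at or below 3 counts in every day 3 library, so that no fold is given. Among the falls, Ctsj, a rodent cathepsin with close paralogs, was at 26.4, 54.5, 10.0 and 10.3 CPM at day 3 and at 0.769, 1.29, 1.79 and 1.87 CPM at day 7 (log2 fold change -4.15, SE 0.87, adjusted p = 0.0323), and Ctla2a, a cathepsin inhibitor, was at 556, 886, 196 and 106 CPM and at 73.9 to 97.2 CPM (log2 fold change -2.33, adjusted p = 0.0363). Tnnt2, the cardiac troponin T, went from 5.58 to 11.4 CPM to 0.374 to 2.25 CPM (log2 fold change -2.75, SE 0.48, adjusted p = 0.0143), and Steap1, a membrane protein of the STEAP family, from 9.90 to 11.2 CPM to 1.04 to 4.07 CPM (log2 fold change -2.28, adjusted p = 0.0200). Steap1 was nearly equal in all 4 day 3 mice.

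Other lists held no call in edgeR's test with all 8 mice. These were antigen presentation (16 genes, median 0.31), interferon-stimulated genes (26, median 0.19), heat shock and ER chaperones (28, median -0.13), cholesterol synthesis (20, median 0.16), complement (16, median 0.61), nuclear oxidative phosphorylation (30, median -0.64) and mitochondrially encoded subunits (13, median 0.22). Without day 3 replicate 4, 15 of the 30 oxidative phosphorylation genes and 4 of the 26 interferon-stimulated genes were called lower beside 4.56% of all tested genes. In that fit 1 interferon-stimulated gene was called higher, beside 1.69% of all tested genes. With all mice the voom fit called 24 and 5 of them lower and 1 and 2 higher, beside 14.5% lower and 8.02% higher of all tested genes. DESeq2 called 3 and 2 of them lower and 0 and 2 higher, beside 4.06% lower and 2.63% higher. Hepatocyte markers also had no call, although all 14 had positive values, with a median of 0.79 and a summed level of 1552 to 4904 CPM at day 3 and 1462 to 11119 CPM at day 7. Of 11 T and NK cell markers and 9 dendritic cell markers 0 were called, with medians of -0.81 and 0.13, and of 10 B and plasma cell, 7 cholangiocyte, 6 mesothelial, 12 stellate cell and 8 other endothelial markers 0 were called, with medians of 0.19, 0.42, 1.99, 0.58 and -0.92. Leaving out 1 mouse turned the sign of some of these medians. They ranged from -1.09 to 0.36 for T and NK cells, from -0.17 to 0.44 for dendritic cells and from -0.03 to 0.54 for B and plasma cells. The range was -0.01 to 1.07 for stellate cells and -0.49 to 0.12 for heat shock and ER chaperones.

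**Figure D5:**
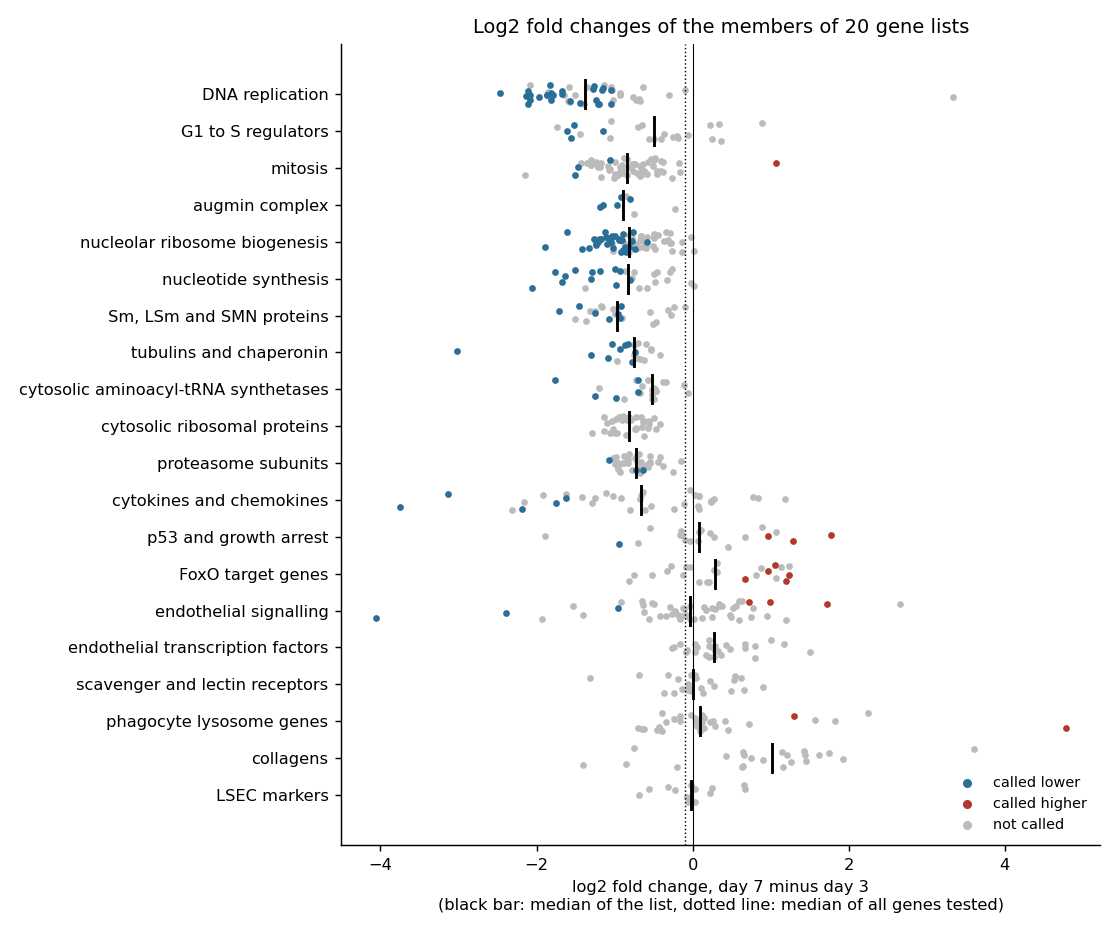
Points are the log2 fold changes, day 7 against day 3, of the genes of 20 lists, with called genes coloured and the median of each list as a black bar. The dotted line is the median over all 26626 tested genes, -0.10, and the replication list had a median of -1.37.

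Among the 362 genes lower at day 7, the highest day 3 library was replicate 1 for 134 genes, replicate 2 for 66, replicate 3 for 79 and replicate 4 for 83. The comparison shares its day 3 and day 7 mice with any contrast of these days against healthy LSECs, and no such contrast was tested here.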

How the data were processed

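RNA of sorted LSECs was sequenced from 14 mice, and the 4 libraries at day 3 and 4 at day 7 were compared. Per the labels and the study's methods, the authors mapped reads with STAR to GRCm38, assembled them with StringTie and deposited raw counts per Ensembl gene, without normalization. The annotation release and use of strand are not given in the sources used here. Of 54524 genes 9902 had no count and 0 columns were left unused. Gene names, positions and overlaps were those of GENCODE vM21, in which 54495 genes were matched. Promoters came from RefSeq (GRCm38.p6).

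Genes were filtered with filterByExpr (minimum count 10, minimum total 15, by group) and counts were scaled by TMM. CPM uses the scaled library sizes. The 4 group means were fitted over all 14 samples with edgeR 4.0.16 (R 4.3.3) and day 7 was tested against day 3 by the quasi-likelihood test, with Benjamini-Hochberg adjustment over all tested genes and a threshold of 0.05. A standard error (SE) is the absolute log2 fold change over the square root of F. Single library measures were compared by exact permutation tests over the 8 mice (SciPy 1.17.1). The edgeR fit was tried on counts simulated with the same spread in every gene and group. This does not cover the unlike day 3 pairs or any other fit. Every result was recomputed with limma 3.58.1 (voom and sample weights), DESeq2 1.42.0, other scalings, filters, sample sets and thresholds, the replicate number as a block, and leaving out each library. The omission of pairs of day 3 libraries was chosen after seeing the data.

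The members of lists and the tests were chosen with earlier results of these data known. Genes were named by this rule: the 12 genes that rose most and the 12 that fell most among called protein-coding genes without overlap between groups and with a mean of at least 1 CPM in the higher group, for each list up to 4 called members with the smallest adjusted p and the 2 with the highest mean, and 14 genes of interest such as Mki67 and Stab2. Angpt2, Ccl4, Cdc6, Gas6, Mcm2, Mcm6, Smad7, Tk1, Uhrf1 and the genes named from the lists chosen after the values were seen (among them Nop56, Ctps, Txnip, Tubb6 and Mxd4) were added after their values were seen. A replication gene outside the 50 counted is not reported here. Samples with the same replicate number did not deviate together (correlation of deviations -0.034 to 0.034, 0 of 4 pairs over 0.1), so they were not treated as pairs.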

Additional observations from a re-analysis of the deposited data

Results flagged for a closer look

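In 202 sets of 4 mice (1 gene in 1 group each), 8 held a mouse far from the other 3 by Dixon's test at the 95% level, where chance gives about 1 in 20. Values are log2 CPM. Dkc1 was at 5.11 in day 3 replicate 4 against 5.74 to 5.78 in the others, and Igf2 at -5.39 in day 3 replicate 4, which had no count, against -3.20 to -2.91. In day 7 replicate 1, Mcm2 was at 4.04 (others 4.62 to 4.73), Sesn1 at 6.31 (others 5.59 to 5.62), Apln at -1.82 (others -0.93 to -0.85) and Col4a2 at 8.0 (others 8.83 to 8.95). Uhrf1 was at 3.13 in day 7 replicate 4 (others 3.73 to 3.81), and Slfn4 at 1.76 in day 7 replicate 3 (others 1.35 to 1.38).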

How the results depend on the processing

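Of 82 called genes given with values, 0 changed sign under any of the 22 alternatives. This is no test of them. Leaving out mice can hardly turn the sign of a gene whose groups do not overlap, and a changed threshold reuses the same fit. The number of genes called (472, 110 higher and 362 lower) moved widely. It was 287 (70 higher, 217 lower) when scaled by library size only, 389 (117 and 272) with RLE size factors, 157 (42 and 115) without a filter on low counts, 615 (284 and 331) with 10 counts in every sample, 1783 (701 and 1082) with DESeq2, which gave no adjusted p for 6812 genes, 6002 (2136 and 3866) with limma-voom and sample weights, 44 (9 and 35) at an adjusted p under 0.01 and 926 (246 and 680) under 0.1. The share higher was 23.3%, against 46.2% with 10 counts in every sample and 39.3% with DESeq2. With the 8 samples alone it was 1 (1 and 0), and with the replicate block 0 (0 and 0, 2218 at an unadjusted p under 0.05) in 8 samples and 244 (45 and 199) in 14 samples, where 2 of 4 day 3 samples correlated best with their own number. Without day 3 replicates 3 and 4 it was 6133 (2907 and 3226), and without replicates 1 and 2 it was 638 (162 and 476). Without 1 library at a time it ranged from 26 to 1652, with 15 to 446 higher and 11 to 1206 lower. The cause was not tested.

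Replication genes called lower numbered 26, against 17 when scaled by library size only, 14 without a filter, 42 with DESeq2, 0 with the 8 samples alone, 0 and 12 with the replicate block in 8 and 14 samples, 4 at an adjusted p under 0.01 and 3 to 32 without 1 library. Of 15 genes not called, 4 changed sign: Mki67 (log2 fold change 0.020 with limma-voom, 0.34 without day 3 replicates 3 and 4), Kdr (-0.14) and S100a9 (2.27) without day 3 replicates 1 and 2, and Col1a2 (-0.13 without day 7 replicate 2, in a range of -0.13 to 2.32 without 1 library). Between the 2 days the mitochondrial share of counts was 4.8% ± 1.29 and 7.35% ± 2.13 (SD, n = 4 each, exact permutation p = 0.114). Depth was ample for most genes named, and genes with few counts, such as Igf2 with 8, 5, 10 and 0 counts in the day 3 libraries, were limited by it.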
